A study of Mus musculus with 6 samples.

Results

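The genes described here carry out mitosis: they encode the cyclins and kinases that start it, the condensin that packs chromosomes, the kinetochores and kinesins of the spindle, the checkpoint that delays anaphase, and the proteins that split the cell. The list holds 49 named genes. Each was read from 1 probe set, the one with the highest mean over all arrays, and 48 of the 49 had a probe set naming them alone among 18193 genes measured. Ccnb1 had none and was not analysed here.

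Bone marrow LSK cells of mice aged 10 to 14 weeks were profiled in 3 sorted groups, with 2 Affymetrix arrays per group and 6 in all. LSK cells are negative for lineage antigens and positive for Sca1 and Kit, and blood stem cells and early multipotent progenitors lie among them. Flow sorting on CD34 and Flt3 gave the CD34+Flt3hi, CD34+Flt3- and CD34-Flt3- groups, to look for expression differences between subpopulations of different function. No group carried a treatment or an engineered allele in the labels, and the strain, the sex and the number of mice or sorts behind an array were not given in the sources used here. A p-value here weighs a difference against array-to-array spread alone, and that spread may be technical.

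Mitotic genes are transcribed in waves late in the cell cycle, and a population with few dividing cells holds little of their RNA. The most primitive blood stem cells are known to divide seldom, while multipotent progenitors divide often. Many mitotic promoters carry a CCAAT box, bound by NF-Y, and the cell cycle genes homology region, or CHR, which the DREAM complex binds in resting cells and complexes of B-Myb and FoxM1 bind in dividing ones.

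The promoters of the members shared these letters more often than promoters at large. Promoter windows from RefSeq (build GRCm38.p6), running from 250 bases before a gene's start to 50 bases from it on, were matched by symbol for 43 of the 49 genes, in 46 windows. The CHR letters TTTGAA, searched on both strands, stood in 34 of the 46 windows (73.9%), against 17.9% of all 32851 windows. CCAAT, searched the same way, also stood in 34 of the 46 windows (73.9%), against 37.4% of all windows. Both motifs stood together in 29 windows (63.0%), against 6.95% of all windows. The E2F-type motif GCGGGAA stood in 2 windows (4.35%), against 4.60% of all. These are matches of letters, not binding sites, and matches of different motifs may overlap. None of the 3 motifs stood in the windows of 7 of the 43 genes (Birc5, Kif18a, Mad2l1, Ncaph, Nuf2, Nusap1 and Pttg1), which range below from the least to among the most changed.

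The stretches up to the start of 8 genes are shown, since among members that rose in CD34+Flt3- over CD34-Flt3- cells they are those with the smallest adjusted p whose TTTGAA lies before the start. One window is shown for each gene. Capitals mark TTTGAA and CCAAT or their reverse complements, TTCAAA and ATTGG.
Cep55, chr19:38054891-38055040, plus strand: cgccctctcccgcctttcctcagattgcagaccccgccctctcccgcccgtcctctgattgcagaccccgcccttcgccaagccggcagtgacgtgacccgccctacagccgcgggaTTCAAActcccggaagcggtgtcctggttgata
Ect2, chr3:27153879-27154028, minus strand: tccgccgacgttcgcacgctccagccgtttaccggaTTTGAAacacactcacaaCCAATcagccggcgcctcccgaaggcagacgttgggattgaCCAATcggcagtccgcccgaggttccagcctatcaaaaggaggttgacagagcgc
Hmgb2, chr8:57511693-57511842, plus strand: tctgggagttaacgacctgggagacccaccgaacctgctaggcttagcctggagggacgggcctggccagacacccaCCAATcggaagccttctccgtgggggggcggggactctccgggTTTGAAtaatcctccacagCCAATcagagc
Cdc20, chr4:118437344-118437493, minus strand: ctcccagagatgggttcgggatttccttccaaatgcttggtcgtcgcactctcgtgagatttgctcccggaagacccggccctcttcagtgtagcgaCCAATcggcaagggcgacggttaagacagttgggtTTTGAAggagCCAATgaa
Ccnb2, chr9:70421555-70421804, minus strand: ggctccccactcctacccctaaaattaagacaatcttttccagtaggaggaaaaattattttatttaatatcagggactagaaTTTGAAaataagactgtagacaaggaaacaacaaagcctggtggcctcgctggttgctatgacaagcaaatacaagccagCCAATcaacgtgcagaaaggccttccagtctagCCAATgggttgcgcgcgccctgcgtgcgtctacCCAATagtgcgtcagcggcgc
Espl1, chr15:102296143-102296292, plus strand: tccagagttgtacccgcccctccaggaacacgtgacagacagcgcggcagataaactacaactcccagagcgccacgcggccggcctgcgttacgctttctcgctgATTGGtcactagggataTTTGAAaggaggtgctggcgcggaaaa
Ube2c, chr2:164769779-164769928, plus strand: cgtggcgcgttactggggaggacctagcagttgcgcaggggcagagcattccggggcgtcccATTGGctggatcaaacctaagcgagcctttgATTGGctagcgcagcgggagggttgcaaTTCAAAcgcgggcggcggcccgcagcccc
Cdk1, chr10:69352913-69353062, minus strand: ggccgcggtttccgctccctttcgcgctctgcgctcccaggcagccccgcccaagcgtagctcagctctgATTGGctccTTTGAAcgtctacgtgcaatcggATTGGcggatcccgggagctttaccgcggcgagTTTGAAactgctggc
Positions are those of a motif's first base, counted from the start and negative before it. In Cdc20 the CHR letters stood at -18, between CCAAT boxes at -53 and -8. In Espl1 they stood at -27, with a CCAAT box on the opposite strand at -44. Cdk1 had the CHR letters at -71 and -15. Ccnb2 held 3 CCAAT boxes, at -87, -54 and -21, and the CHR letters at -167; a further match at 4, after the start, lies outside the stretch shown. Cep55 had the CHR letters at -33 on the opposite strand and no CCAAT in the stretch shown.

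Values below are log2 intensities unless a fold is named. Differences come from 1 limma model of the 6 arrays, and adjusted p-values (Benjamini-Hochberg, over 18193 genes) were held against a threshold of 0.05. An SE is that of the fitted log2 difference of 2 arrays against 2, with each gene's spread pooled over all groups. The background level, 4.50, came from unspiked bacterial controls. Cd34 read 11.35 and 11.34 in CD34+Flt3hi, 10.51 and 10.68 in CD34+Flt3-, and 8.78 and 9.45 in CD34-Flt3- cells, in the order of the sort. Flt3 read 12.01 and 11.75, then 8.84 and 9.81, then 7.65 and 9.16 in the same groups, so its RNA overlapped between the groups sorted as Flt3 negative. The titles carry codes of unstated meaning, here A for replicate 2 of every group, B for replicate 1 of both CD34+ groups and C for replicate 1 of the CD34-Flt3- group. Some control readings moved with the CD34-Flt3- arrays. The 3 prime actin control read, in linear units, 12426 and 12814 in CD34+Flt3hi, 12963 and 12587 in CD34+Flt3-, and 7693 and 7368 in CD34-Flt3- cells. For Gapdh, the 3 prime signal divided by the 5 prime signal was 6.59 and 8.42, then 6.83 and 7.5, then 5.04 and 6.34 in the same groups. The same ratio for actin was 3.69 and 3.79, then 3.25 and 4.44, then 3.58 and 5.55, and the bioC spike read 2115 and 1916, then 2770 and 2588, then 2706 and 4281. Both were highest on CD34-Flt3- replicate 2. Their part in the results was not tested.

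Nearly the whole list was higher in CD34+Flt3hi cells than in CD34-Flt3- ones. Of the 48 measured members 45 rose past the threshold and none fell, while 2.62% of all genes rose and 3.5% fell. The 3 that did not pass were Smc4, a condensin core subunit (log2 1.10, adjusted p = 0.0687), Plk1, a kinase of mitotic entry and spindle poles (1.58, adjusted p = 0.102), and Pttg1 (-0.31, adjusted p = 0.425), which encodes securin, the inhibitor of separase. The median log2 difference of the members was 2.43, against -0.07 over all genes. A difference above 4-fold was seen in 36 members and one above 8-fold in 11. With readings below background set to it, those counts were 36 and 9, since Kif20a and Ncapg came to 7.70-fold and 6.80-fold. In RNA from sorted populations, fewer dividing cells and less RNA per cell cannot be told apart. Within code A alone, with 1 array per group, 47 of 48 members were higher in CD34+Flt3hi cells, with a median of 3.23. Over all genes the median within code A was -0.09, with quartiles of -0.42 and 0.25. Without CD34+Flt3hi replicate 1 the count of rises was 12 (0.682% of all genes) and without its replicate 2 it was 8 (0.594%), while the median stayed at 2.50 and 2.43.

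**Figure D1:**
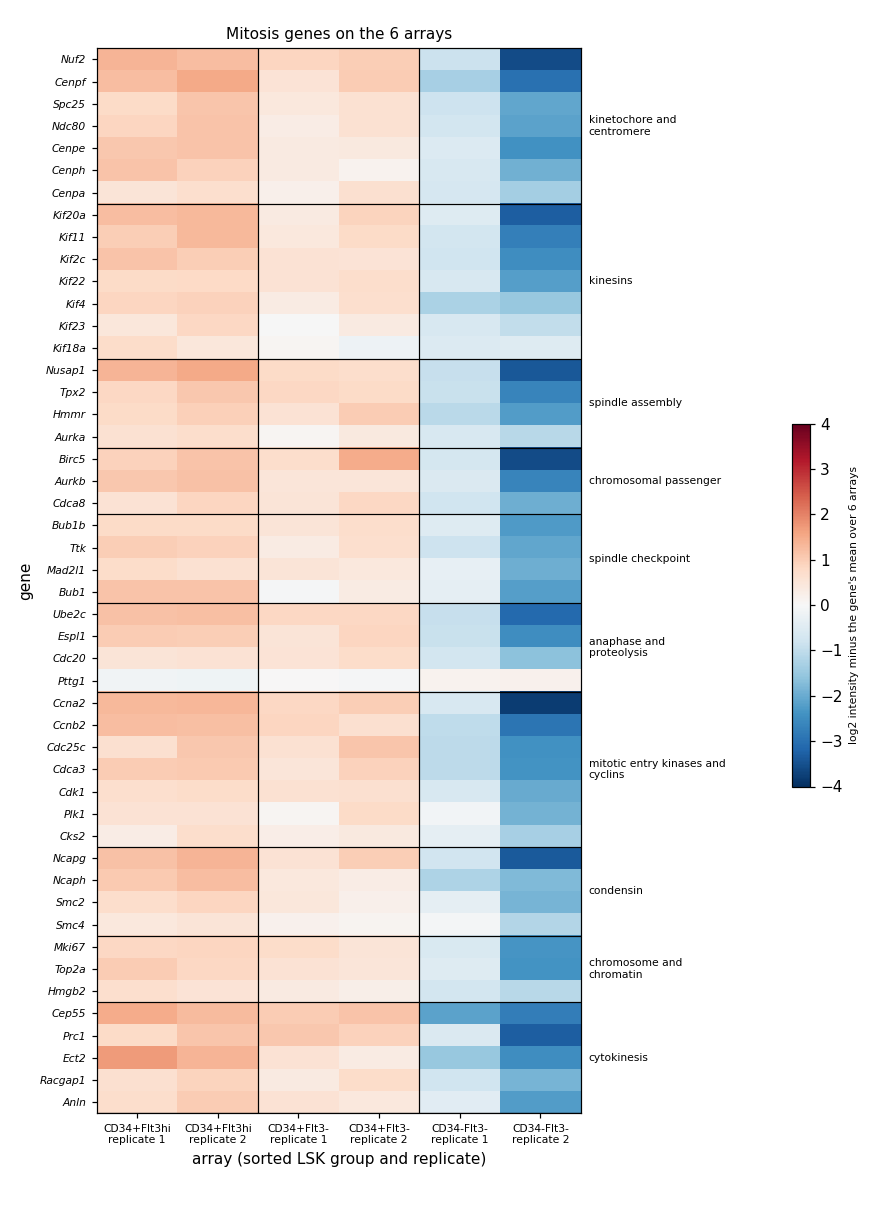
Each row is a member and each column an array, grouped by sorted population from CD34+Flt3hi at the left to CD34-Flt3- at the right; colour gives the log2 intensity minus the gene's mean over the 6 arrays. Apart from Pttg1, the members are lowest on the CD34-Flt3- arrays, and lower on replicate 2 than on replicate 1 of that group in 46 of 48 genes.

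Cytokinesis held the member with the largest difference, and all 5 of its genes rose in CD34+Flt3hi cells. Cep55, which recruits the machinery that cuts the last bridge between daughter cells (Entrez gene 74107, chromosome 19), read 9.44 and 9.24 in CD34+Flt3hi, 8.98 and 9.09 in CD34+Flt3-, and 5.80 and 5.20 in CD34-Flt3- cells. The CD34-Flt3- arrays stood far below all the others. Cep55 was 14.3-fold higher in CD34+Flt3hi cells than in CD34-Flt3- ones (log2 3.84 ± 0.28, SE, adjusted p = 0.000161) and 11.6-fold higher in CD34+Flt3- cells than there (adjusted p = 0.00403). Its other probe set was below background on all arrays. Ect2, the exchange factor that activates RhoA at the cleavage furrow, read 8.0 and 7.66, then 6.87 and 6.61, then 4.78 and 3.80 in the same groups, the last of these below background. No array of one group overlapped those of another. It was 11.6-fold higher in CD34+Flt3hi cells than in CD34-Flt3- ones (log2 3.54 ± 0.35, SE, adjusted p = 0.000548). Against CD34-Flt3- cells, CD34+Flt3- cells were 5.46-fold higher (log2 2.45 ± 0.35, adjusted p = 0.0167). With the 1 reading below background set to it, these log2 differences were 3.19 and 2.10. Racgap1, the partner of Ect2 in the central spindle, read 8.0 and 8.27 in CD34+Flt3hi, 7.74 and 8.11 in CD34+Flt3-, and 6.56 and 5.52 in CD34-Flt3- cells. It rose 4.27-fold and 3.69-fold against CD34-Flt3- cells (adjusted p = 0.00787 and 0.0335). Anln, which encodes the contractile ring scaffold anillin, and Prc1, which bundles microtubules of the central spindle, rose in CD34+Flt3hi cells (4.64-fold and 7.35-fold) and missed the threshold in CD34+Flt3- cells (adjusted p = 0.0849 and 0.0558).

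Kinetochore and centromere genes rose in CD34+Flt3hi cells in all 7 cases, with a median log2 difference of 2.44 from CD34-Flt3- cells. Cenpf, a large protein of the outer kinetochore, read 9.20 and 9.46 in CD34+Flt3hi, 8.51 and 8.96 in CD34+Flt3-, and 6.61 and 4.97 in CD34-Flt3- cells. It was 11.7-fold higher in CD34+Flt3hi cells than in CD34-Flt3- ones (log2 3.54 ± 0.46, adjusted p = 0.00202), and its other probe sets, at means of 5.17 and 4.94, differed by 1.01 and 0.37 without passing. Members of the Ndc80 complex, the hook that holds the end of a microtubule, moved alike. Spc25 read 8.64 and 8.96, then 8.30 and 8.48, then 7.03 and 5.78, and was 5.24-fold higher in CD34+Flt3hi cells than in CD34-Flt3- ones (adjusted p = 0.0055). Ndc80 read 8.13 and 8.42, then 7.57 and 7.88, then 6.54 and 5.13 (5.42-fold, adjusted p = 0.00762). Nuf2, of the same complex, read 8.92 and 8.80, then 8.43 and 8.56, then 6.69 and 3.99, the last of these below background (11.5-fold, adjusted p = 0.0121, and 9.60-fold with that reading set to background). In all 3 the CD34-Flt3- arrays lay further from each other than any of the 4 CD34+ arrays did. Both CD34+Flt3hi arrays lay above both CD34+Flt3- arrays in each of the 3. Cenpa, the histone variant that marks the centromere, had the smallest difference of the 7 (log2 1.62 ± 0.29, adjusted p = 0.0105). The motor Cenpe (2.60) and the inner kinetochore gene Cenph (2.31) lay between.

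All 7 kinesins rose in CD34+Flt3hi cells, by log2 1.11 for Kif18a to 3.16 for Kif20a. Kif4, the chromosome-bound motor that works with condensin and Prc1, read 7.69 and 7.74 in CD34+Flt3hi, 7.16 and 7.50 in CD34+Flt3-, and 5.57 and 5.32 in CD34-Flt3- cells. The 2 arrays of each group lay close together, and the 4.82-fold rise had the smallest adjusted p of the kinesins (log2 2.27 ± 0.27, adjusted p = 0.00142). Kif23, the motor of the central spindle, read 10.37 and 10.74, then 9.91 and 10.26, then 9.27 and 8.93 (2.75-fold, adjusted p = 0.00643). Kif2c, which dismantles microtubule ends at the centromere, read 9.12 and 8.97, then 8.57 and 8.52, then 7.19 and 5.50 (6.5-fold, adjusted p = 0.00701). Kif11, the motor that pushes the spindle poles apart, differed by log2 2.89, Kif22, which moves chromosome arms, by 2.20, and Kif20a, which carries the passenger complex to the midzone, by 3.16. With readings below background set to it, Kif11 differed by 2.87 and Kif20a by 2.95. Kif18a, which shortens kinetochore fibres, read 6.36 and 6.07, then 5.69 and 5.41, then 5.09 and 5.12. It rose 2.16-fold in CD34+Flt3hi over CD34-Flt3- cells (adjusted p = 0.036).

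The spindle assembly and passenger genes all rose in CD34+Flt3hi cells. Hmmr, which encodes a spindle protein first described as a hyaluronan receptor, read 9.14 and 9.33 in CD34+Flt3hi, 8.94 and 9.39 in CD34+Flt3-, and 7.28 and 6.12 in CD34-Flt3- cells (5.80-fold between the outer groups, adjusted p = 0.00355). Nusap1, a microtubule bundler, read 9.79 and 9.94, then 9.20 and 9.12, then 7.51 and 5.04 (12.1-fold, adjusted p = 0.00717). Tpx2, the activator of Aurora A, read 9.18 and 9.45, then 9.19 and 9.13, then 7.48 and 5.73 (6.54-fold, adjusted p = 0.00787). In Hmmr and Tpx2 the arrays of the CD34+ groups overlapped, and those groups differed by 0.07 and 0.16. Aurka, the Aurora A kinase itself, differed less (log2 1.52 ± 0.27, adjusted p = 0.0103). Of the chromosomal passenger complex, which corrects faulty attachments and then guides cytokinesis, Cdca8 (borealin) read 10.60 and 10.89, then 10.52 and 10.84, then 9.22 and 8.05 (4.30-fold, adjusted p = 0.00591). Aurkb, its kinase, rose 6.59-fold (adjusted p = 0.0141) and Birc5 (survivin) 8.96-fold (adjusted p = 0.0284). Birc5 read 9.07 and 9.29, then 8.85 and 9.62, then 7.45 and 4.58, among the widest gaps within the CD34-Flt3- group.

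The checkpoint genes rose in all 4 cases. Ttk, the kinase Mps1, read 7.96 and 7.91 in CD34+Flt3hi, 7.29 and 7.64 in CD34+Flt3-, and 6.13 and 4.91 in CD34-Flt3- cells (5.33-fold, adjusted p = 0.00542). Bub1, a kinase that marks the inner centromere, read 8.03 and 8.04, then 6.84 and 7.23, then 6.52 and 4.67 (5.42-fold, adjusted p = 0.0178). Bub1b, which encodes BubR1, read 10.22 and 10.22, then 9.95 and 10.14, then 8.93 and 7.18 (4.48-fold, adjusted p = 0.0199). Bub1 thus had its CD34+Flt3- arrays nearer to CD34-Flt3- replicate 1 than the other checkpoint genes did. Mad2l1 (Mad2) rose 3.51-fold (adjusted p = 0.0326). On the other side of the checkpoint stand the genes of anaphase. Cdc20, the activator of the anaphase-promoting complex that Mad2 and BubR1 restrain, read 10.74 and 10.82, then 10.80 and 10.96, then 9.50 and 8.61 (3.31-fold, adjusted p = 0.0057). Espl1 (separase), which cuts cohesin, read 8.69 and 8.64, then 8.18 and 8.53, then 6.79 and 5.17 (6.44-fold, adjusted p = 0.0069). Ube2c, the ubiquitin-conjugating enzyme of that complex, read 10.12 and 10.17, then 9.80 and 9.77, then 8.04 and 5.85 (9.21-fold, adjusted p = 0.00737).

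Pttg1 did not follow the other members. Its brightest probe set read 10.39 and 10.36 in CD34+Flt3hi, 10.54 and 10.47 in CD34+Flt3-, and 10.67 and 10.70 in CD34-Flt3- cells. The 6 readings lay close together, with the CD34-Flt3- group the highest. The difference between the outer groups was -0.31 ± 0.18 (SE, adjusted p = 0.425). Its other probe sets, at means of 6.83 and 6.04, gave -0.58 and -0.32, neither past the threshold. Separase, the enzyme that securin holds inactive, differed by log2 2.69.

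Of the genes of mitotic entry, 6 of 7 rose in CD34+Flt3hi cells. Cdca3, an adaptor for the destruction of Wee1, read 9.17 and 9.20 in CD34+Flt3hi, 8.65 and 9.08 in CD34+Flt3-, and 7.12 and 5.78 in CD34-Flt3- cells (6.65-fold, adjusted p = 0.00355). Ccnb2 (cyclin B2) read 10.05 and 10.01, then 9.68 and 9.46, then 7.81 and 5.90 (9.02-fold, adjusted p = 0.00465). Cdc25c, a phosphatase that switches on Cdk1, read 7.70 and 8.15, then 7.68 and 8.17, then 6.03 and 4.63 (6.05-fold, adjusted p = 0.00677). Its readings in the CD34+ groups were nearly the same pair. Ccna2 (cyclin A2) rose 11.5-fold (adjusted p = 0.0207), Cdk1, the kinase itself, 4.05-fold (adjusted p = 0.0118) and its subunit Cks2 2.52-fold (adjusted p = 0.0297). Plk1 read 8.43 and 8.43, then 7.94 and 8.60, then 7.74 and 5.97, so that CD34-Flt3- replicate 1 lay just below the nearest CD34+Flt3- array.

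Of 4 condensin genes 3 rose in CD34+Flt3hi cells, and so did all 3 chromosome and chromatin genes. Ncaph, a condensin I subunit that closes the ring, read 9.67 and 9.86 in CD34+Flt3hi, 9.05 and 8.92 in CD34+Flt3-, and 7.39 and 6.86 in CD34-Flt3- cells (6.24-fold, adjusted p = 0.000548). No group overlapped another. Ncapg, another condensin I subunit, read 7.90 and 8.09, then 7.30 and 7.70, then 5.96 and 3.37, the last below background (10.1-fold, adjusted p = 0.0143, and 6.80-fold with that reading set to background). The ATPase subunits shared with condensin II differed less in their brightest probe sets, with 3.70-fold for Smc2 (adjusted p = 0.0243) and 2.15-fold for Smc4. Other probe sets of Smc4 gave 1.29 and 3.15 on the log2 scale, and those of Smc2 0.63 to 2.53, so the order among subunits depends on the probe set and was not tested. Mki67, the source of the Ki-67 proliferation antigen, read 11.87 and 11.90, then 11.78 and 11.54, then 10.44 and 8.67 (5.03-fold, adjusted p = 0.012). Top2a, the topoisomerase that untangles sister chromatids, read 11.47 and 11.29, then 11.02 and 10.94, then 9.93 and 8.06 (5.22-fold, adjusted p = 0.0139). Hmgb2, a chromatin protein, read 12.05 and 11.94, then 11.75 and 11.61, then 10.66 and 10.28 (2.88-fold, adjusted p = 0.00143). Both Mki67 and Top2a stayed well above background on every CD34-Flt3- array.

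**Figure D2:**
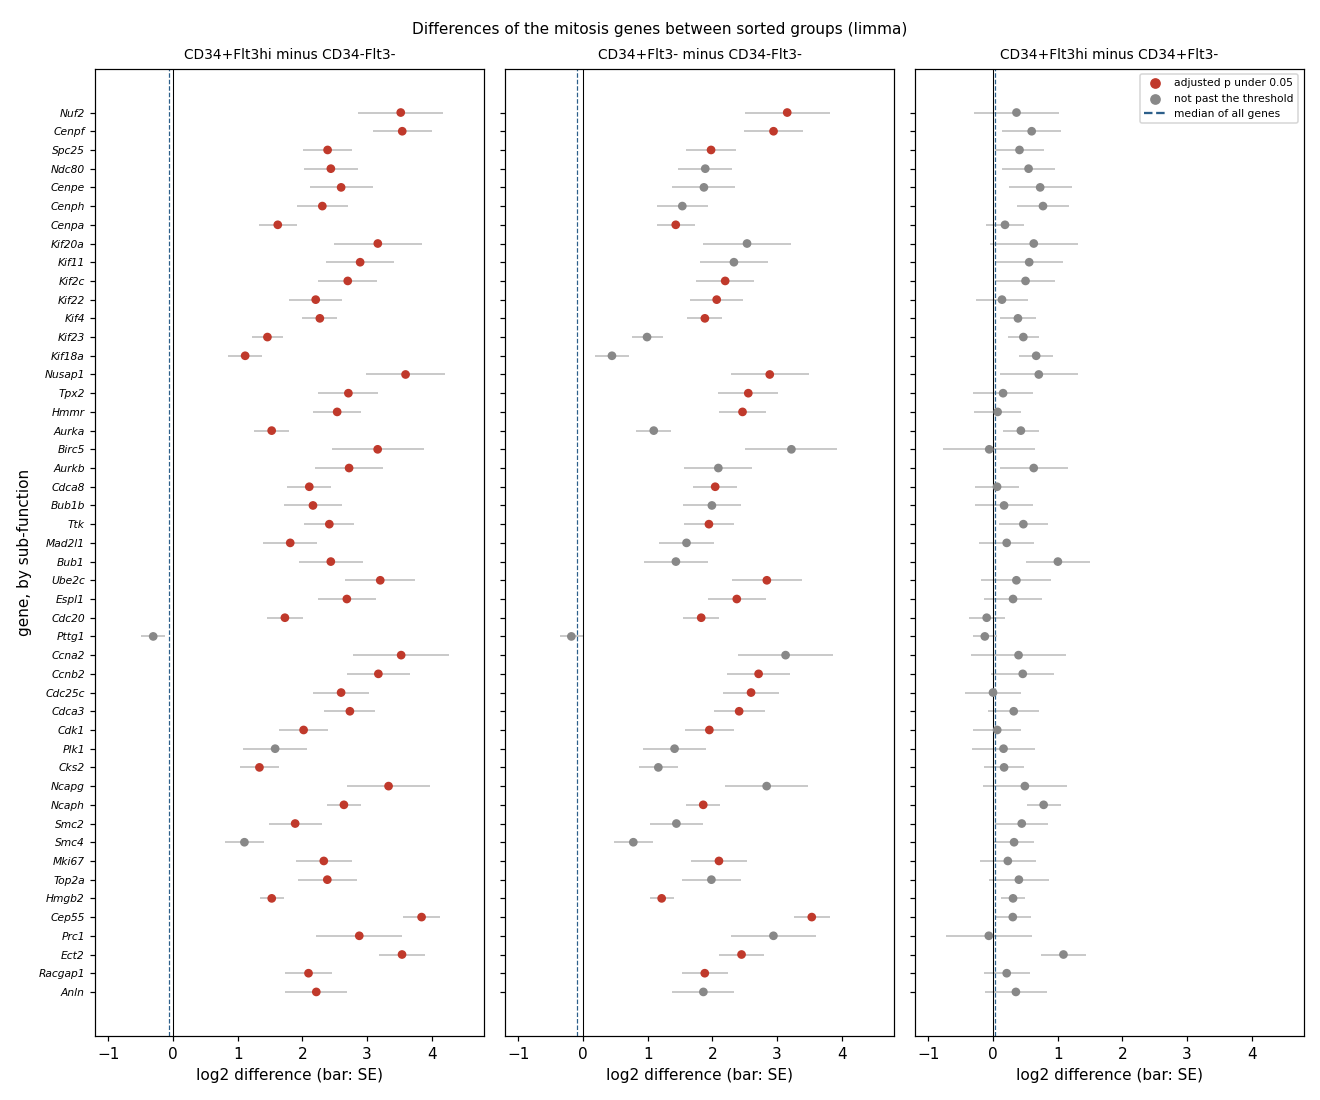
Log2 differences of the 48 measured members with their SE, from left CD34+Flt3hi over CD34-Flt3-, then CD34+Flt3- over the same group, then CD34+Flt3hi over CD34+Flt3-; red points passed an adjusted p of 0.05, grey points did not, and the dashed line is the median of all genes. Red points number 45, 25 and 0 in the 3 panels.

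Between CD34+Flt3- and CD34-Flt3- cells the same direction was seen with fewer calls. Of the 48 members 25 rose and none fell, against 0.77% of all genes that rose and 1.33% that fell, and the median difference was 1.99, against -0.10 over all genes. Both CD34+Flt3- arrays lay above both CD34-Flt3- arrays in 47 members, as in 15.6% of all genes. This comparison shares its CD34-Flt3- arrays with the one above. By sub-function, the rises were 4 of 7 kinetochore genes, 3 of 7 kinesins, 3 of 4 spindle assembly genes, 1 of 3 passenger genes, 1 of 4 checkpoint genes, 3 of 4 anaphase genes, 4 of 7 entry genes, 1 of 4 condensin genes, 2 of 3 chromosome genes and 3 of 5 cytokinesis genes. Besides Cep55 and Ect2, those with the smallest adjusted p were Ncaph (3.63-fold, adjusted p = 0.015), Kif4 (3.69-fold, adjusted p = 0.0171), Hmmr (5.52-fold, adjusted p = 0.0172), Cdc20 (3.55-fold), Hmgb2 (2.32-fold) and Cenpf (7.70-fold), the last 3 at an adjusted p of 0.0176. Further rises were Cdca3 (5.33-fold), Cdc25c (6.05-fold), Cdca8 (4.12-fold), Ccnb2 (6.56-fold), Tpx2 (5.87-fold), Espl1 (5.19-fold), Ube2c (7.17-fold), Spc25 (3.94-fold), Ttk (3.85-fold), Kif22 (4.19-fold), Kif2c (4.59-fold), Cenpa (2.70-fold), Mki67 (4.29-fold), Nusap1 (7.39-fold), Nuf2 (8.92-fold) and Cdk1 (3.87-fold). Members with differences as large but wider SEs missed the threshold, such as Birc5 (3.22 ± 0.71, adjusted p = 0.0522) and Ccna2 (3.13 ± 0.74, adjusted p = 0.065).

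The calls in that comparison rested on few arrays. Leaving out CD34-Flt3- replicate 1 gave 46 rises, where 1.98% of all genes rose, and leaving out its replicate 2 gave 34, where 1.32% did. In the fit of all arrays, 46 members were at an unadjusted p under 0.05 (limma), against 16.9% of all genes. The count of rises was 1 without CD34+Flt3- replicate 1 (Cep55, 0.115% of all genes). It was 0 without CD34+Flt3- replicate 2, where no gene of all 18193 passed. It was 2 without either CD34+Flt3hi array (Cep55 and Ect2, 0.0824% of all genes in each). With only the 4 arrays compared it was 2 (0.077% of all genes), with quantile normalization repeated 41 (1.39%) and, averaging all probe sets of a gene, 11 (0.385%). Fitting the title code as a fixed block gave 46 (2.85%), in a fit where the CD34-Flt3- group rests on replicate 2 alone. The median difference moved less, and stood at 2.82 when CD34-Flt3- replicate 1 was left out, 1.34 when replicate 2 of that group was, and between 1.94 and 2.08 without any one of the other arrays. Within code A the median was 2.81, against -0.14 over all genes.

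CD34+Flt3hi and CD34+Flt3- cells had no called difference in this list. No member passed the threshold in either direction (limma, 3 members at an unadjusted p under 0.05, as were 6.76% of all genes), where 0.61% of all genes did. The median difference was 0.36, against 0.03 over all genes, and 44 of 48 members had a difference above 0, as did 54.0% of all genes. The members at an unadjusted p under 0.05 were Ect2 (log2 1.09 ± 0.35, adjusted p = 0.4), Ncaph (0.78 ± 0.26, adjusted p = 0.449) and Kif18a (0.67 ± 0.27, adjusted p = 0.633). Bub1 differed by 1.0 ± 0.50 (adjusted p = 0.787) and Cenph by 0.77 ± 0.40 (adjusted p = 0.81). The other sub-functions had as their smallest adjusted p Aurka at 0.43 (0.903), Aurkb at 0.63 (0.943), Espl1 at 0.31 (0.979), Ccnb2 at 0.46 (0.964) and Hmgb2 at 0.31 (0.871). Birc5, Cdc20, Prc1 and Pttg1 had differences below 0. Within code A the median was 0.32, with 42 members above 0, and within code B it was 0.46, with 44 above 0. Over all genes those medians were 0.06 and 0.01. With a fixed block for the title code, Ect2 and Bub1 passed, as did 3.68% of all genes. The model pools each gene's spread over all groups, so the gap between the CD34-Flt3- arrays enters these SEs and p-values. With only the arrays of the CD34+ groups fitted, the count of members called was 0, where 1.65% of all genes passed. A p that misses the threshold does not show that the groups are alike.

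The step of CD34+Flt3- over CD34-Flt3- cells was larger than the step of CD34+Flt3hi over CD34+Flt3- cells in 46 of 48 members (39.4% of all genes), by a median of 1.68 on the log2 scale. The test of that contrast passed in no member (limma, where 0.0275% of all genes did), and 24 of 48 were at an unadjusted p under 0.05, against 9.29% of all genes. Its smallest adjusted p was that of Cep55 (3.23, adjusted p = 0.127). With a fixed block for the title code it passed in 37 members and in 3.08% of all genes, and without CD34-Flt3- replicate 1 in 28 members and 0.649% of all genes.

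The 10 sub-functions gave similar values. The mean of each, relative to the genes' means over all 6 arrays, lay between 0.64 and 1.13 on the CD34+Flt3hi arrays, between 0.32 and 0.93 on the CD34+Flt3- arrays, between -1.10 and -0.51 on CD34-Flt3- replicate 1 and between -2.72 and -1.77 on its replicate 2. Taken across sub-functions, these ranges overlapped between the CD34+ groups, and neither overlapped that of a CD34-Flt3- array. Within each sub-function but the passenger genes, both CD34+Flt3hi arrays lay above both CD34+Flt3- arrays. In the passenger genes CD34+Flt3hi replicate 1 lay below CD34+Flt3- replicate 2. This order of the CD34+ arrays was not tested by sub-function. Between the outer groups the median difference ran from 2.21 for the anaphase genes, where Pttg1 is 1 of 4, to 2.88 for the cytokinesis genes. Between CD34+Flt3- and CD34-Flt3- cells it ran from 1.65 for condensin to 2.51 for spindle assembly. Between CD34+Flt3hi and CD34+Flt3- cells it ran from 0.06 for the passenger genes to 0.55 for the kinetochore genes. These differences between sub-functions were not tested.

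**Figure D3:**
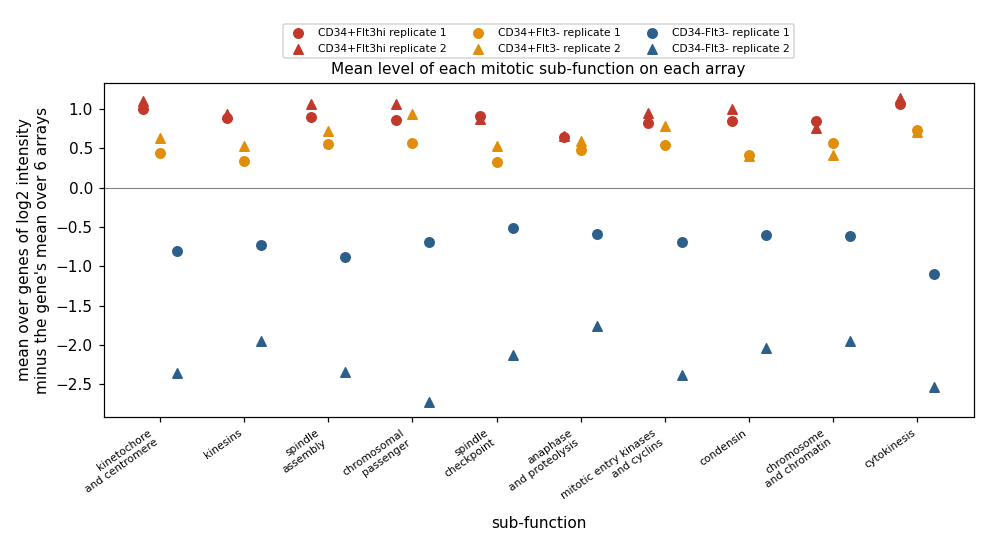
Mean over the genes of each sub-function of log2 intensity minus the gene's mean over 6 arrays, with circles for replicate 1 and triangles for replicate 2 of the CD34+Flt3hi (red), CD34+Flt3- (orange) and CD34-Flt3- (blue) groups. In each of the 10 sub-functions both CD34-Flt3- points lie below 0, and replicate 2 lies lower than replicate 1 by about 1 to 2 log2 units.

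The 2 CD34-Flt3- arrays differed more in these genes than in genes at large. Replicate 1 was higher in 46 of 48 members, against 50.6% of all genes, and over 2-fold higher in 36, against 5.24% of all genes. The median gap was 1.53 on the log2 scale, against 0.01 over all genes. By comparison, 0 members differed over 2-fold between the CD34+Flt3hi arrays (0.616% of all genes) and 0 between the CD34+Flt3- arrays (2.62% of all genes). The widest gaps were in Ccna2 (8.53 on replicate 1 and 5.40 on replicate 2), Birc5, Kif20a (6.82 and 4.06), Prc1 (7.84 and 5.11) and Nuf2. Gaps above 4-fold were seen in 9 members, or 8 with readings below background set to it. The narrowest were in Pttg1 and Kif18a, at -0.04 and -0.03, then Kif4 (0.25), Kif23 (0.34) and Hmgb2 (0.38). On replicate 2, 6 members were below background (Cenph, Nuf2, Kif11, Kif20a, Ncapg and Ect2), and on the other 5 arrays none was. With those readings set to background the gap was 2.32 in Kif20a, 2.19 in Nuf2, 1.94 in Kif11, 1.46 in Ncapg, 1.18 in Cenph and 0.28 in Ect2, and the median over all members was 1.49. The actin ratio and the bioC spike, given above, also set replicate 2 apart, and their part in the gap was not tested.

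By sub-function the median gap was 2.07 for the passenger genes, 1.77 for the chromosome genes, 1.69 for the checkpoint genes, 1.54 for the kinesins, 1.46 for spindle assembly, 1.40 for the kinetochore and the entry genes, 1.30 for condensin, 1.26 for the anaphase genes and 1.05 for cytokinesis. With 3 to 7 genes in each and ranges that overlap, no order among them was tested. On replicate 1, 47 of 48 members read lower than on any of the 4 CD34+ arrays. The matching share of all genes was not counted. The outer groups differed by a median of 3.13 with replicate 2 alone in the CD34-Flt3- group and 1.68 with replicate 1 alone, and 47 and 44 members rose (4.83% and 2.54% of all genes).

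**Figure D4:**
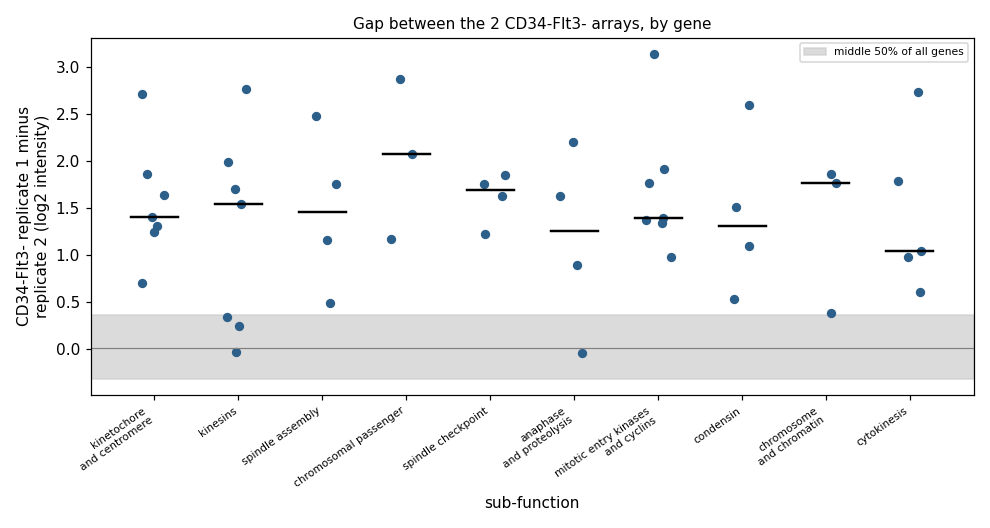
CD34-Flt3- replicate 1 minus replicate 2 in log2 intensity, 1 point per member, by sub-function, with a black bar at the median; the grey band holds all genes between their lower and upper quartiles, -0.31 to 0.37. All but 4 of the points lie above the band, and 36 lie above 1.

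Markers of other cells also moved between arrays or groups. Of 12 erythroid markers 10 were measured. Of these, 5 fell in CD34+Flt3hi against CD34-Flt3- cells (3.5% of all genes), and 2 in CD34+Flt3- against CD34-Flt3- cells (1.33%). On CD34-Flt3- replicate 1, 9 of the 10 were higher than on replicate 2, against 50.6% of all genes. The summed linear intensity of the 10 was 4942 and 5315 in CD34+Flt3hi, 8344 and 5629 in CD34+Flt3-, and 17552 and 8364 in CD34-Flt3- cells. Car1 (carbonic anhydrase 1) read 11.98 and 9.19 on those replicates and Klf1, an erythroid transcription factor, 9.92 and 7.46, while Hba-a1, the alpha globin gene, was below background on all arrays but CD34-Flt3- replicate 2 (3.52 to 4.52). Of 10 granulocyte and monocyte markers, all measured, 1 rose and 1 fell in CD34+Flt3hi against CD34+Flt3- cells (0.61% of all genes in either direction). Of the same 10, 3 rose in CD34+Flt3- over CD34-Flt3- cells (0.77%) and 3 in CD34+Flt3hi over CD34-Flt3- cells (2.62%). Their sums were 7328 and 4844 in CD34+Flt3hi, 5789 and 7433 in CD34+Flt3-, and 3084 and 3381 in CD34-Flt3- cells, and Ltf, a gene of mature neutrophils, was below background on all arrays. Of 6 megakaryocyte markers, all measured, 5 fell in CD34+Flt3hi against CD34-Flt3- cells (3.5% of all genes). Of the same 6, 1 fell in CD34+Flt3- against CD34-Flt3- cells (1.33%) and 2 in CD34+Flt3hi against CD34+Flt3- cells (0.61% in either direction). Their sums were 268 and 214 in CD34+Flt3hi, 2189 and 969 in CD34+Flt3-, and 3272 and 3435 in CD34-Flt3- cells. Of 4 measured mast cell and basophil markers, 2 fell in CD34+Flt3hi against CD34+Flt3- cells (0.61% of all genes in either direction). Against CD34-Flt3- cells, 1 rose in CD34+Flt3- cells (0.77%) and 1 fell in CD34+Flt3hi cells (3.5%). The sums of the 4 were 236 and 132 in CD34+Flt3hi, 609 and 507 in CD34+Flt3-, and 296 and 262 in CD34-Flt3- cells. The sums of B lineage, T and NK lineage, dendritic, and endothelial and stromal markers stayed at or below 325 on every array. The part of any of these in the mitotic genes was not tested.

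Probe sets other than the brightest were available for 34 members, 58 in all, of which 28 were above background on every array. Of these 28, 26 were higher in CD34+Flt3- than in CD34-Flt3- cells, with a median of 1.57, and 8 passed over all probe sets. Between CD34+Flt3hi and CD34-Flt3- cells 26 of the 28 were higher, with a median of 1.56, and 18 passed. The 2 of opposite sign were those of Pttg1. CD34-Flt3- replicate 1 was higher than replicate 2 in 23 of the 28, with a median gap of 0.85. No share over all probe sets is set beside these counts, and these sets were read on the same arrays as the brightest. Some disagreed with the brightest set. A probe set of Kif2c above background on all arrays differed by 0.02 between CD34+Flt3- and CD34-Flt3- cells where the brightest gave 2.20, and one of Spc25 by 0.23 where the brightest gave 1.98. Among sets not above background throughout, one of Racgap1, below it on all arrays, was lower in CD34+Flt3hi cells (-0.66). For Aurkb, a set differing by 2.51 passed where the brightest, at 2.09, did not.

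Other cell division genes, from lists not overlapping the 49, rose in part. Of 31 further kinetochore and centromere genes, 14 rose in CD34+Flt3hi over CD34-Flt3- cells, such as Sgo2a, a protector of centromeric cohesin (log2 2.17), and Cenpk (2.11). Among 24 further spindle genes and kinesins 14 rose, with Spag5 (astrin, 3.02) and the centriole gene Stil (2.29) at the smallest adjusted p. Of 20 mitotic regulators 12 rose, with Cks1b (1.25) and Arhgap11a (2.34) at the smallest adjusted p. Among 15 genes of cohesin and condensin II with their partners 5 rose, including Cdca5 (sororin, 2.26) and the acetyltransferase gene Esco2 (1.77). Of 15 core subunits and partners of the anaphase-promoting complex only Fbxo5, which encodes its inhibitor Emi1, rose (1.92). No gene of these lists fell. The medians were 1.05, 1.45, 1.33, 0.49 and 0.18 in the same order, against 2.43 for the 48 members, and 2.62% of all genes rose. For comparison, 17 of 32 DNA replication genes rose, with a median of 1.0, and their mean relative to the genes' own means was 0.42 and 0.41 in CD34+Flt3hi, 0.27 and 0.17 in CD34+Flt3-, and -0.32 and -0.94 in CD34-Flt3- cells. Their median gap between the CD34-Flt3- arrays was 0.60, against 1.53 for the mitotic members. The differences between lists were not tested.

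**Figure D5:**
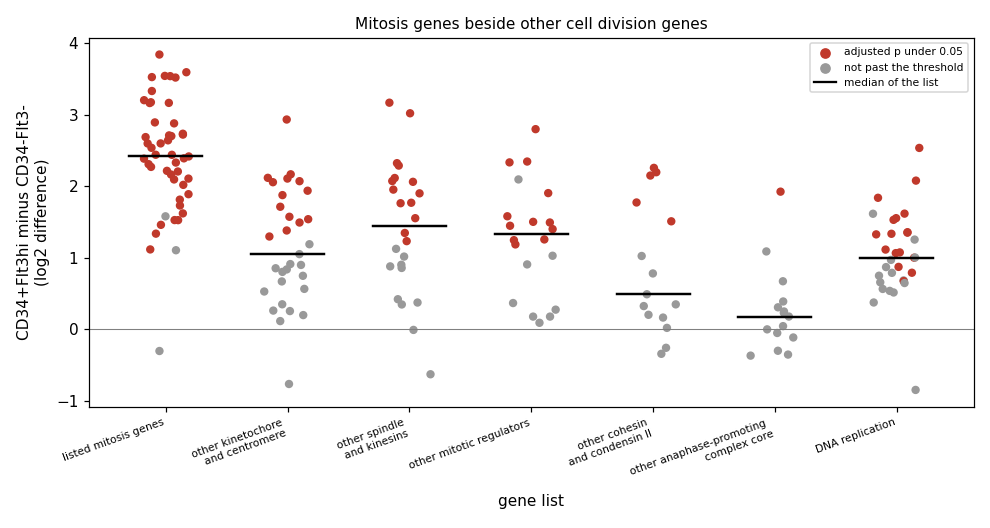
Log2 difference between CD34+Flt3hi and CD34-Flt3- cells for the listed mitosis genes, 5 lists of other cell division genes and a list of DNA replication genes; red points passed an adjusted p of 0.05, grey points did not, and bars are medians. The median falls from 2.43 for the listed genes to 0.18 for the core of the anaphase-promoting complex.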

How the data were processed

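Cells had been sorted into lysis buffer, and their RNA was purified with a micro kit, amplified in rounds of in vitro transcription, labelled with biotin and hybridised, per the labels' protocols. The authors deposited signal intensities per probe set, and the submitters' processing notes name RMA, without a version. The values run from 6.5 to 24173 and were taken as linear, an inference from that range, and their log2 was used throughout. Arrays have no read depth, and their number limits the precision.

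Of 45101 probe sets, 64 were controls, 34945 named 1 gene, 932 more than 1 and 9160 no gene. Gene identifiers, 99.1% of which matched, gave current symbols. Background was the 90th percentile of 27 unspiked bacterial control probe sets, 22.6 in linear units. Group means came from limma 3.58.1 (R 4.3.3), with an intensity trend, 3 residual and 6.86 prior degrees of freedom, and the pipeline was tested on simulated data. With 2 arrays a group, permuting samples exactly cannot reach the threshold, and none was run. No sample column was left out.

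The members, the lists and the tests were chosen with earlier results of these data known. Full statistics are given, in each sub-function, for up to 3 members past the threshold with the smallest adjusted p, or for the 1 with the smallest where none passed, and other members are given by value. Tried as alternatives were a fixed or random block for the title code, no trend, quantile normalization or median centring, a background filter, other probe set choices, only the arrays compared, other thresholds and leaving out each array in turn. Data handling and figures used pandas 2.3.3, matplotlib 3.10.9 and Python 3.11.15.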

Additional observations from a re-analysis of the deposited data

How the results depend on the processing

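The direction of the members given with full statistics reversed under none of the alternatives run. Counted as pairs of a gene and an alternative, their calls held in 273 of 414 for CD34+Flt3- minus CD34-Flt3- cells (23 genes) and were lost in 141. They held in 489 of 539 such pairs for CD34+Flt3hi minus CD34-Flt3- cells (30 genes). The pairs include the looser threshold of 0.10, which a called gene always meets, and each gene's probe set of smallest p. These counts therefore lean towards calls that held. For the count of members called between CD34+Flt3- and CD34-Flt3- cells, 25 with all arrays, the alternatives gave 46 with the title code as a fixed replicate block, 41 with quantile normalization repeated, 42 at an adjusted p under 0.10, 11 with the mean of all probe sets (9 of them among the 25), 2 with only the arrays compared, and 0 to 46 with each array left out in turn. With a random replicate block it was 34, where 0.973% of all genes rose. With no trend it was 17 (0.643%), as it was with each array centred on its median (0.561%). The share of all genes at an adjusted p under 0.10 was not counted. Between CD34+Flt3hi and CD34-Flt3- cells it was 45, and 8 to 47 with each array left out; all other settings gave 35 to 46. The 35 came with only the arrays compared, where 1.95% of all genes rose, and a random replicate block gave 46 (2.93%). Between CD34+Flt3hi and CD34+Flt3- cells the count was 0, and 2 with the fixed replicate block. For the difference of the steps it was 0, 37 with the fixed replicate block and 0 to 28 with each array left out. The codes have no stated meaning and code C holds 1 array, so the block is no separate support; the cause of these moves was not tested. Where a group keeps 1 array, that array is assumed to vary like the others. Readings near background limit the dimmest members.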
